A study of Mus musculus with 6 samples.

Results

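RAW 264.7 cells that had been incubated with mica fine particles (MFP) for 48 h were compared with cells collected at 0 h, over all genes that the arrays detected. The members were chosen by time point from the sample labels, which gave 4 of the 6 arrays of the series, 2 at 48 h and 2 at 0 h. RAW 264.7 is a mouse line of leukemic monocyte macrophages, and MFP are particles of mica, an aluminosilicate mineral. At 48 h the cells had been with 100 µg/mL MFP in RPMI medium with 2% FBS. The 0 h cells came from the same medium, and although the methods give 100 µg/mL for every collection time, a legend of the study calls the 0 h cells nontreated, and they were taken as untreated here. The other 2 arrays held cells collected at 12 h with the same dose.

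Macrophages take up particles into phagosomes, which fuse with lysosomes, and a mineral that cannot be digested stays in the cell. Macrophages also secrete cytokines, proteases and their inhibitors, handle the iron and lipid of what they take up, and carry sensors of stress and infection. Unlike most macrophages of a tissue, the cells of this line divide in culture.

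Several limits hold for every value below. All cells were of 1 line, and no untreated culture collected at 48 h was among the arrays, so the effect of MFP and that of 48 h in the low-serum medium cannot be told apart. Whether both arrays of 1 time were hybridized with RNA of separate cultures is not given in the sources used here, and the p-values therefore measure only how far these arrays differ, a spread that may be technical. In RNA from whole cultures, fewer cells of a kind and less RNA per cell cannot be told apart. Of 45281 probes, 17155 and 16372 were detected on the 48 h arrays, against 16238 and 16352 on the 0 h arrays, and the lowest signals, between 66.9 and 73.1 over the 6 arrays, show that no background had been subtracted, so that fold changes of dim probes are compressed. Of 15 macrophage markers 14 had a probe, and 10 of these were detected on all 6 arrays, whereas the probes of Mertk, Cd163, Mrc1 and Fcer1g were detected on none. The summed signal of the macrophage list, before normalization, was 46710.1 and 71079 at 48 h, against 54778 and 34562 at 0 h. Of 5 B cell, 8 neutrophil, 8 dendritic cell and 8 fibroblast markers with a probe 0 were detected on all 6 arrays. Of 8 T cell markers only Cd8b1 was, at 6201 and 6939.8 at 48 h, against 6302 and 6110.1 at 0 h, and of 8 epithelial markers only Cdh1, at 136 and 143 at 48 h, against 140.1 and 144 at 0 h, and neither passed the test described next.

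A detection p under 0.05 on all 6 arrays was met by 14091 probes. After log2 transformation and quantile normalization over the 6 arrays, with the brightest probe standing for a gene, 9984 features were tested, of which 8149 were named genes. Signals below are these normalized signals in arbitrary units, except for probes outside the tested set. A gene passed at an adjusted p under 0.05 (limma, Benjamini-Hochberg over the 9984 features), and it was called if it also differed by at least 2-fold. Fold changes are given as log2 of 48 h over 0 h ± standard error, with 2 arrays per time point.

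At 48 h, 534 features were called higher (5.35% of those tested) and 506 lower (5.07%). Without the fold threshold 2627 passed as higher (26.3%) and 2632 as lower (26.4%). These shares are the background of the list and family counts below for 48 h against 0 h. A count near them does not set a list or family apart. Counts with the array set as a block stand beside 3370 features that passed as higher and 3358 as lower with that block. For members that passed between 48 h and 12 h no share over all features is given. Those counts only describe the lists. From the authors' normalized table, in which 2 sets of arrays were normalized separately, 310 were called higher and 305 lower, and 530 and 510 once the set was a block. The median log2 fold change over all features was 0.0075, with quartiles of -0.32 and 0.32, and the median standard error was 0.10. The rises reached further than the falls, since 87 features rose and 55 fell at least 4-fold, and 18 rose and 1 fell at least 8-fold. Of the called genes with a name, 52 of 472 higher and 52 of 430 lower ones were on the pathways that the study tabulated, and the other 420 and 378 are the ground covered below. Both 48 h arrays lay above both 0 h arrays in 38.0% of the features and below both in 37.4%. The 231 genes chosen by the naming rule were selected on this contrast, and their groups did not overlap. With the features split into 4 equal bins of mean signal, 1.76% were called higher and 1.04% lower in the dimmest bin, against 5.53% to 7.21% per direction in the other 3.

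The largest rises outside the tabulated pathways were of genes that are better known from other tissues. Avil encodes advillin, an actin-severing protein of the villin family, and its signal was 7542 and 7715 at 48 h, against 193 and 177 at 0 h. The 12 h arrays, at 240.4 and 252, still lay near the 0 h ones, and the log2 fold change at 48 h was 5.37 ± 0.09 (adjusted p = 6.0e-08). Cox6a2, the heart and muscle form of a cytochrome c oxidase subunit, gave 21003 and 24839 at 48 h, against 808 and 755 at 0 h (log2 fold change 4.87 ± 0.12). Cdsn, which encodes the skin adhesion protein corneodesmosin, gave 2871 and 3173 at 48 h, against 168 and 137 at 0 h (log2 fold change 4.31 ± 0.13). In each of these 3 genes the 2 arrays of a time point lay close together and far from those of the other.

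Secreted proteins and enzymes that act outside the cell followed. Slpi, a secreted inhibitor of neutrophil elastase, was at 1971 and 2061 at 48 h, against 169 and 153 at 0 h, and Angptl6, an angiopoietin-like factor, at 2861 and 2885 at 48 h, against 249 and 257 at 0 h. Their log2 fold changes were 3.64 ± 0.10 and 3.51 ± 0.08. Cp, the copper-containing ferroxidase ceruloplasmin, was at 1282 and 1014 at 48 h, against 143 and 128 at 0 h (3.07 ± 0.13). Qpct, which cyclizes N-terminal glutamine of secreted peptides, was at 1451 and 1519 at 48 h, against 183 and 171 at 0 h (3.07 ± 0.13). In each of these genes both 48 h arrays lay far above both 0 h arrays. Dpep2, a dipeptidase that cleaves leukotriene D4, was at 3342 and 3549 at 48 h, against 439.5 and 500.2 at 0 h (2.88 ± 0.10).

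Channels, carriers and receptors of the membrane formed a further share of the 20 largest rises. Aqp9, a channel for water and glycerol, was at 4922 and 5517 at 48 h, against 619 and 591 at 0 h (3.11 ± 0.10). Hvcn1, the voltage-gated proton channel, was at 1286 and 1273 at 48 h, against 154 and 157 at 0 h (3.04 ± 0.08). Slc40a1, the iron exporter ferroportin, was at 15871 and 16956 at 48 h, against 2543 and 2241 at 0 h (2.78 ± 0.10). Ptgir, the prostacyclin receptor, was at 6911 and 5692 at 48 h, against 841 and 848 at 0 h (2.89 ± 0.12). The groups did not overlap in any of these genes. Among ion channels and pumps outside this top 20, Lrrc8a, a subunit of the volume-regulated anion channel, rose by 2.73 ± 0.10 on its brighter probe, P2rx4, an ATP-gated cation channel, by 2.19 ± 0.09, and Mcoln2, a cation channel of endosomes, by 1.49 ± 0.09.

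The rest of the top 20 were enzymes and regulators inside the cell. Ddit3, the stress transcription factor CHOP, was at 8477 and 7675 at 48 h, against 989 and 870.4 at 0 h (3.12 ± 0.10). Casp4, the caspase that senses lipopolysaccharide in the cytosol, was at 5075 and 5707 at 48 h, against 673 and 577 at 0 h (3.11 ± 0.11). Gstm1, a glutathione transferase, was at 1830.3 and 2158 at 48 h, against 197 and 208 at 0 h (3.30 ± 0.10). The groups lay far apart in all 3, though averaging its probes lowered the log2 fold change of Casp4 to 1.84. Log2 fold changes of 3.43 for the histone gene H2ac18, 3.15 for Csprs, 2.88 for the phospholipid-binding annexin Anxa3, 2.88 for Sh2d6 and 2.85 for the mitochondrial protein Chchd10 completed the set. H2ac18 has near-identical copies among the histone genes, so its probe may read several of them.

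**Figure D1:**
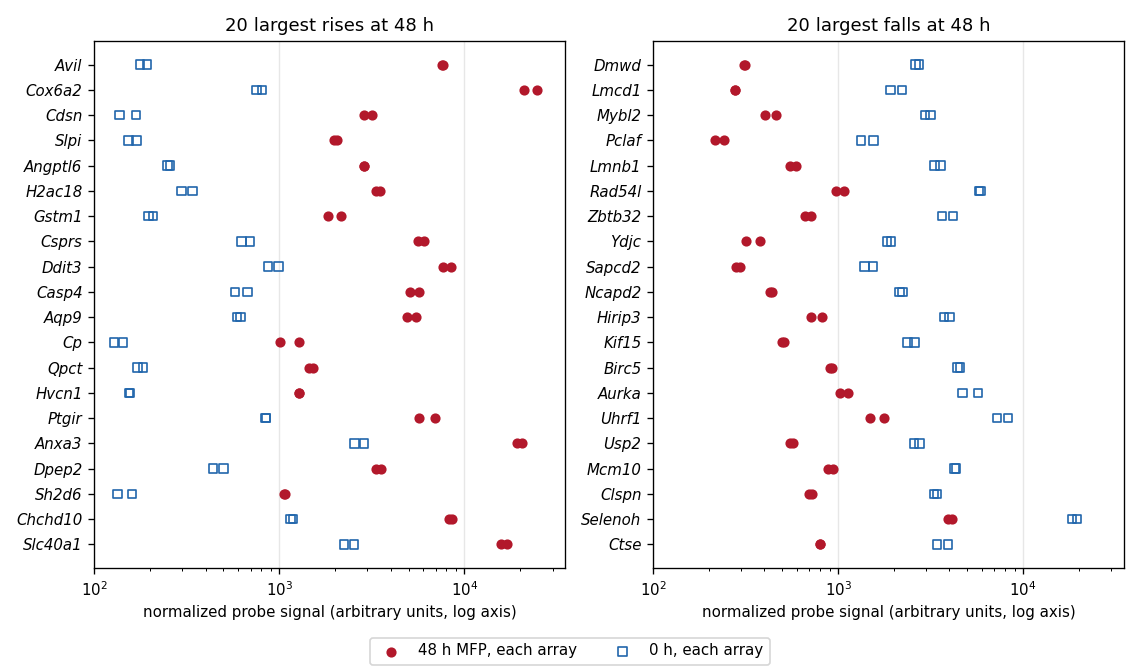
Normalized signal (arbitrary units, log axis) of the 20 largest rises (left) and the 20 largest falls (right) among called genes outside the tabulated pathways, with filled circles for the 48 h arrays and open squares for the 0 h arrays. No gene has overlapping groups, and the widest gap is that of Avil, at 7542 and 7715 against 193 and 177.

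The largest falls outside the tabulated pathways included genes that serve division and genes of other roles. Dmwd, a WD-repeat gene, was at 312 and 314 at 48 h, against 2618 and 2731 at 0 h, a log2 fold change of -3.10 ± 0.10 (adjusted p = 8.7e-07). Lmcd1, a LIM domain protein that represses transcription, was at 278 and 276 at 48 h, against 1918 and 2215 at 0 h (-2.90 ± 0.10). The 12 h arrays of Lmcd1 read 2005 and 1958, within the range of the 0 h arrays. Mybl2, a Myb factor that drives genes of the cell cycle, was at 403 and 462 at 48 h, against 2950.3 and 3148 at 0 h (-2.82 ± 0.10). Pclaf, which binds the replication clamp PCNA, was at 217 and 241 at 48 h, against 1333 and 1551 at 0 h (-2.65 ± 0.11), and Lmnb1, the nuclear envelope protein lamin B1, at 549 and 591 at 48 h, against 3574 and 3312 at 0 h (-2.60 ± 0.10). In each of these 5 genes both 48 h arrays lay far below both 0 h arrays.

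Further members were Rad54l of recombination repair (-2.51), Ncapd2 of condensin (-2.33), the mitotic kinesin Kif15 (-2.30), the chromosomal passenger Birc5 (-2.29), the mitotic kinase Aurka (-2.26), Uhrf1, which reads hemimethylated DNA (-2.26), Mcm10 of the replication fork (-2.25) and the checkpoint protein Clspn (-2.24), all as log2 fold changes. Of other genes in this set, Zbtb32, a zinc finger repressor, fell by 2.50 on the log2 scale, the deubiquitinase Usp2 fell by 2.25 and the nuclear selenoprotein Selenoh fell by 2.23. The log2 fold changes were -2.44 for Ydjc, -2.35 for Sapcd2, -2.33 for Hirip3 and -2.20 for the brighter probe of Ctse. Selenoh was at 3919 and 4141 at 48 h, against 19563 and 18382 at 0 h, with no overlap.

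The promoters of 2 of these genes, and of Ddit3 from the largest rises, are shown because they hold the letters of motifs known from division and stress genes. They are the 250 bases before the start site in RefSeq, build GRCm38.p6, 5′ to 3′ on the strand of the gene, with the matched letters in capitals. Ncapd2 (chr6:125191587-125191836, minus strand) and Kif15 (chr9:122950831-122951080, plus strand) were the 2 genes among the 20 largest falls whose window held both the CHR letters TTTGAA and the E2F letters TTTGGCGC or TTTCGCGC, on either strand, and were chosen after the letters had been searched. Ddit3 (chr10:127290543-127290792, plus strand) is given for the AP-1 letters TGANTCA and the letters CCAAT, and the CCAAT letters, which read ATTGG on the other strand, are capitals in Ncapd2 too. No marked motif shares letters with another.
Ncapd2: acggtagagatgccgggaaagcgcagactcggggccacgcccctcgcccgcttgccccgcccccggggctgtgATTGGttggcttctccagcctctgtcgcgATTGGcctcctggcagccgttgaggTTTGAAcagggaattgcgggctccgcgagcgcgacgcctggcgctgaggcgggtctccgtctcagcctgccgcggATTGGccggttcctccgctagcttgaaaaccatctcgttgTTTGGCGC
Kif15: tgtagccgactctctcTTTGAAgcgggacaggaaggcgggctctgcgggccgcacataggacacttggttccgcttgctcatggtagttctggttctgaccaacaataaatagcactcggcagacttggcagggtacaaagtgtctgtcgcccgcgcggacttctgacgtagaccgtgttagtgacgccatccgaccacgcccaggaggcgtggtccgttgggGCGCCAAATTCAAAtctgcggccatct
Ddit3: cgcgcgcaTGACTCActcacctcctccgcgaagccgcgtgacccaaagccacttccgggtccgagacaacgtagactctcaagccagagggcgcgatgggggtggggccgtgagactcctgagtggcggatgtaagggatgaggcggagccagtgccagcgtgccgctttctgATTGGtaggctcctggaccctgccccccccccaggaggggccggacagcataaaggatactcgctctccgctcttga

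Of the 8149 named genes 5310 had exactly 1 RefSeq window, among them 297 called higher and 297 called lower. The CHR letters lay in 11.4% of the windows of genes called higher, in 18.9% of those called lower and in 10.4% of all tested windows, and in 16.7% of all 22862 RefSeq genes with 1 window. The E2F letters were in 1.01%, 4.04% and 1.56% of these windows, and in 0.665% over RefSeq. CCAAT was in 39.4%, 49.8% and 37.9%, and in 34.7% over RefSeq. The AP-1 letters were in 7.41%, 4.71% and 3.94%, and in 6.96% over RefSeq, and the interferon-stimulated response element, or ISRE, in 5.05%, 1.68% and 2.66%, and in 3.11% over RefSeq. The E-box CACGTG known from lysosomal genes was in 10.1%, 8.08% and 9.0%, and in 5.92% over RefSeq. These shares were not tested, and a match of letters is a description, not a binding site.

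In the lists for splicing and nuclear transport more members passed as lower than as higher. Pre-mRNA splicing is carried out by the spliceosome, and in the list of spliceosome proteins and hnRNPs 0 of 72 genes tested passed as higher and 52 as lower, of which 13 were called lower and 0 higher. The median log2 fold change of this list was -0.64, beside 0.0075 over all features, and within the 2 sets of arrays described at the end it was -0.66 and -0.62. With the set as a block 2 passed as higher and 55 as lower. Lsm2, a ring protein that binds U6 RNA, was at 624 and 718 at 48 h, against 1961 and 1845 at 0 h (-1.51 ± 0.10), and Prpf31 of the tri-snRNP was at 171 and 147 at 48 h, against 399.7 and 420.3 at 0 h (-1.37 ± 0.10). Lsm6 (-1.42) and Lsm3 (-1.40) of the same ring also fell. In the direct comparison of the late with the early time point, 3 passed as higher and 41 as lower at 48 h than at 12 h in this list.

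Nuclear pores and transport receptors carry RNA and protein across the envelope, and 0 of 47 genes tested passed as higher and 33 as lower, with 10 called lower and 0 higher and a median of -0.53. With the array set as a block 2 passed as higher and 37 as lower. Nup85, of the outer ring of the pore, was at 837 and 898 at 48 h, against 3085 and 3336 at 0 h (-1.89 ± 0.11). Nup43 (-1.59) and Nup107 (-1.42) belong to the same ring, and Rcc1 (-1.43) loads the transport GTPase Ran. Under the envelope both B-type lamins fell, Lmnb1 as given above and Lmnb2 at 457 and 547 at 48 h, against 1283 and 1379 at 0 h (-1.41 ± 0.11). In the list of septins, lamins and other filaments 5 of 23 genes tested passed as higher and 12 as lower, and the exceptions included Septin8 (1.32 ± 0.09) and the nesprin Syne1, whose arrays spread widely, at 1283 and 876 at 48 h, against 274 and 323 at 0 h (1.83 ± 0.21).

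Transcription and chromatin factors changed less evenly. Of RNA polymerase and Mediator genes, 3 of 47 genes tested passed as higher and 22 as lower (median -0.28), with the polymerase I subunit Polr1b as the 1 called gene (-1.32 ± 0.14). Of 82 genes for Polycomb, histone methylation and acetylation 18 passed as higher and 28 as lower. The demethylase genes Kdm5b (1.52 ± 0.11) and Kdm7a (1.39 ± 0.09) rose, and Cbx5, the heterochromatin protein HP1 alpha, fell (-1.46 ± 0.12). Ezh2, the Polycomb methyltransferase, was at 788 and 469.8 at 48 h, against 1238 and 2318 at 0 h, with a wide spread within each time point, and its fall (-1.48 ± 0.38) no longer passed without 0 h replicate 2 (adjusted p = 0.0871). Of mRNA decay genes, 4 of 45 genes tested passed as higher and 18 as lower. The exosome subunits Exosc2 (-1.64 ± 0.09) and Exosc8 (-1.14 ± 0.09) fell, while Btg1 (1.15 ± 0.10) and Zfp36l1 (1.05 ± 0.09), which recruit deadenylases to mRNA, rose.

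Genes of mitochondrial translation and import fell in part. In the list of mitochondrial ribosomal proteins 6 of 73 genes tested passed as higher and 42 as lower, with a median of -0.31 and 3 called lower. These were Mrpl18 (-1.17 ± 0.09), Mrpl47 (-1.06 ± 0.09, and -0.66 over the mean of its probes) and Mrpl40 (-1.02 ± 0.09). Of the import machinery, 0 of 27 genes tested passed as higher and 11 as lower, and the outer membrane gene Tomm40l was called at 1532 and 1515 at 48 h, against 2943 and 3258 at 0 h. Respiratory chain and ATP synthase genes stayed nearer to the middle, with 7 of 66 genes tested passing as higher and 18 as lower and a median of -0.06, and Cox6a2 was the 1 gene called in this list.

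Lists for protein synthesis, folding and breakdown had negative medians of smaller size. Of aminoacyl-tRNA synthetase genes 8 of 36 genes tested passed as higher and 16 as lower, of initiation and elongation factors 7 of 47 genes tested passed as higher and 18 as lower, of the proteasome 7 of 39 genes tested passed as higher and 16 as lower, and of cytosolic chaperones 8 of 45 genes tested passed as higher and 21 as lower. Their medians were -0.22, -0.18, -0.23 and -0.24. Named members were the scaffold Aimp2 (-1.34 ± 0.14), Eif2b1 of the guanine exchange factor eIF2B (-1.01 ± 0.08) and the HSP90 partner Fkbp4 (-1.03 ± 0.09). Of 24 genes whose symbols start with Rps and a digit, most of them for cytosolic ribosomal proteins, 2 passed as higher and 1 as lower, and of 30 such Rpl genes 6 passed as higher and 5 as lower.

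**Figure D2:**
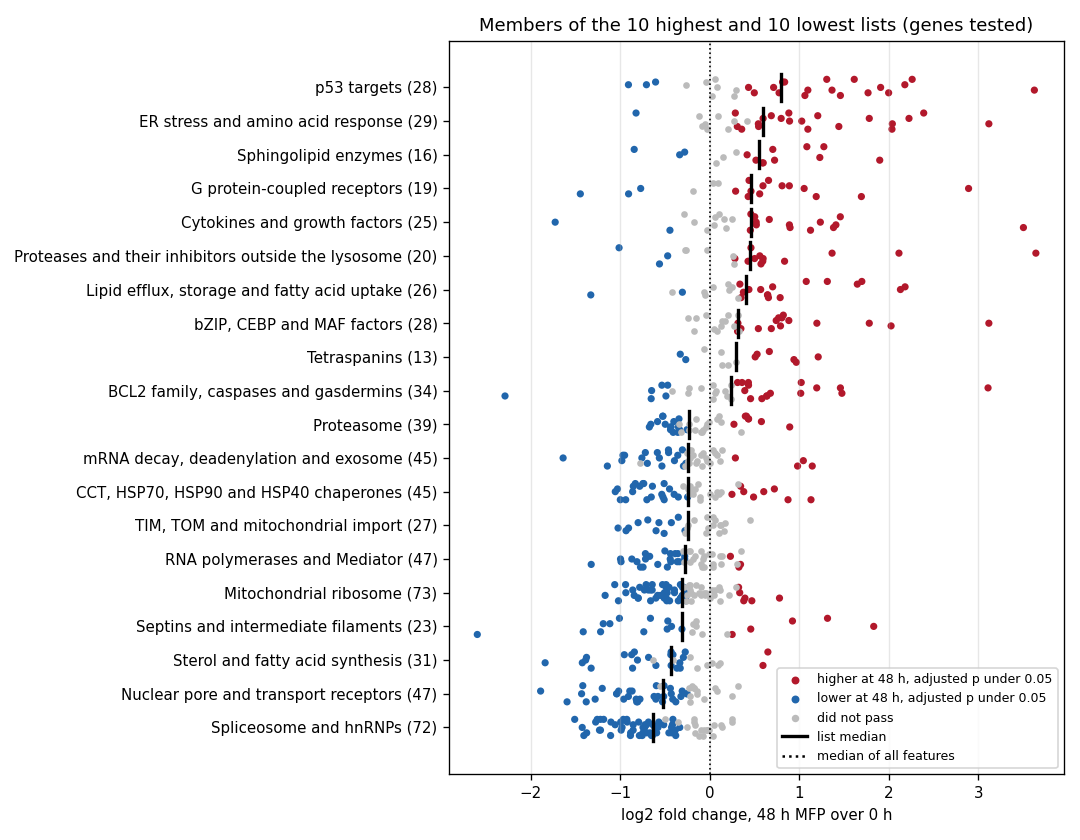
Log2 fold change, 48 h over 0 h, of each tested member of the 10 lists with the highest and the 10 with the lowest medians, with red for members that passed as higher, blue for lower and grey for the rest. Black bars are list medians and the dotted line is the median of all features, and the spliceosome list at the bottom has 52 blue points and 0 red ones.

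The lists for ER stress and for p53 targets had the highest medians. In the list for ER stress and amino acid shortage 20 of 29 genes tested passed as higher and 1 as lower, with 10 called higher and a median of 0.60. Trib3, a pseudokinase downstream of CHOP, was at 9544 and 9652 at 48 h, against 1854 and 1804 at 0 h (2.39 ± 0.09). Ppp1r15a, which reverses the phosphorylation of eIF2 alpha, was at 4210.0 and 4355 at 48 h, against 984 and 849.6 at 0 h (2.23 ± 0.10), and the small chromatin protein Nupr1 was at 3879.6 and 4048 at 48 h, against 1024 and 905 at 0 h (2.04 ± 0.10). The members named here were already higher at 12 h, and 12 passed as higher and 5 as lower at 48 h than at 12 h. The chaperones of the ER lumen gave other counts. Of ER translocation and folding genes 11 of 57 genes tested passed as higher and 16 as lower (median -0.03), and Sdf2l1 (-1.09 ± 0.13) and Creld2 (-1.06 ± 0.10), which are known to be induced by unfolded protein, fell.

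Of amino acid and one-carbon enzymes 9 of 24 passed as higher and 9 as lower. Aldh1l2, the mitochondrial enzyme that oxidizes formyl-tetrahydrofolate, was at 7117 and 7255 at 48 h, against 1668 and 1837 at 0 h (2.04 ± 0.10), and Cth, which makes cysteine, was at 386 and 412 at 48 h, against 161 and 134 at 0 h (1.44 ± 0.13). On the other side Shmt2, the mitochondrial serine hydroxymethyltransferase, was at 732 and 874 at 48 h, against 2108 and 2152 at 0 h (-1.41 ± 0.11), and the spermidine synthase gene Srm was at 2480.5 and 2673 at 48 h, against 6994 and 7059 at 0 h (-1.45 ± 0.10). Enzymes of mitochondrial folate metabolism thus had values on opposite sides of 0.

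In the list of p53 targets 18 of 28 genes tested passed as higher and 3 as lower, with 12 called higher and a median of 0.80, the highest of the 48 lists. Of its 28 tested genes 5 were on the study's own pathways, among them Gadd45a, at 3309.8 and 3243 at 48 h, against 268 and 262 at 0 h (3.63 ± 0.08), so the list is not independent of that selection. Others were Ephx1, an epoxide hydrolase, at 1665 and 1855 at 48 h, against 378 and 355 at 0 h (2.26 ± 0.12), Trp53inp2 of autophagy (2.18 ± 0.14) and the death receptor gene Fas at 853 and 927 at 48 h, against 237 and 209 at 0 h (2.00 ± 0.11). At 12 h the list median was 0.10, and in the direct comparison 17 passed as higher and 2 as lower at 48 h than at 12 h. Nutrient signalling genes that rose included Rragc, a GTPase of the lysosomal mTORC1 switch (1.19 ± 0.09), and Fnip1 of the folliculin complex that acts on it (1.12 ± 0.09). Sesn2 (1.10 ± 0.32) and Ddit4 (1.12 ± 0.21), both inhibitors of mTORC1, had wide spreads, with Sesn2 at 697 and 352 at 48 h, against 201 and 267 at 0 h. Sesn2 no longer passed under 4 alternatives. These were 75th percentile scaling, the authors' normalized table, and leaving out 0 h replicate 1 or 48 h replicate 1.

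Death and inflammasome genes were mixed. In the list of BCL2 family, caspases and gasdermins 16 of 34 genes tested passed as higher and 6 as lower. Beside Casp4 the called rises included Bbc3, a BH3-only killer (1.46 ± 0.09, and 0.86 over the mean of its probes), and Naip5, a flagellin sensor (1.48 ± 0.13), and the called fall was Birc5. Glutathione genes also split. Gstp1 (2.62 ± 0.09) and Gsto1 (2.14 ± 0.09), which are transferases, rose, while the peroxidase gene Gpx1 was at 9141 and 9148 at 48 h, against 29693 and 28507 at 0 h (-1.67 ± 0.08), and over the list 16 of 38 genes tested passed as higher and 7 as lower. Gsto1 was at 9566 and 9827 at 48 h, against 2316 and 2078 at 0 h, and its 12 h arrays, at 1824 and 1759.8, were dimmer than both. Cat, the catalase of peroxisomes, was at 5291 and 5773 at 48 h, against 1743 and 1879 at 0 h (1.61 ± 0.09).

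Lists of lipid genes differed in direction. Enzymes that build sterols and fatty acids were lower at 48 h, with 2 of 31 genes tested passing as higher and 21 as lower and a median of -0.43. Genes for lipid efflux, storage and uptake were higher, with 16 of 26 genes tested passing as higher and 2 as lower and a median of 0.41. Of phospholipid and triglyceride synthesis genes 7 of 26 genes tested passed as higher and 6 as lower (median 0.21), near the shares over all features. Of fatty acid oxidation and peroxisome genes 18 of 44 passed as higher and 4 as lower (median 0.20). Plin2, which coats lipid droplets, was at 2225 and 1643 at 48 h, against 379 and 502 at 0 h (2.13 ± 0.18), and Fabp3, a fatty acid carrier, was at 814 and 767 at 48 h, against 261 and 243 at 0 h (1.65 ± 0.09). Fabp5 (1.70 ± 0.16) and the receptor-related gene Lrp12 (2.18 ± 0.09) also rose.

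Sphingolipids are built in the ER and broken down in lysosomes and at the surface, and 10 of 16 genes tested passed as higher and 3 as lower, with a list median of -0.08 on the 12 h arrays and 0.55 on the 48 h arrays, both against 0 h. Asah2, a ceramidase, was at 1549 and 1223 at 48 h, against 343 and 396 at 0 h (1.90 ± 0.13). Sphk2, which phosphorylates sphingosine, was at 4205 and 4258 at 48 h, against 1816 and 1680.2 at 0 h (1.28 ± 0.09), and Sgpl1, the lyase that cleaves the product, was at 4153 and 4210.0 at 48 h, against 1856 and 1709 at 0 h (1.23 ± 0.09). Kdsr, an enzyme of the synthesis branch, also rose (1.09 ± 0.10). The genes named here, with Kdsr as the only one of synthesis, were higher on both 48 h arrays, whereas 3 others of the list passed as lower. In the list, 9 passed as higher and 0 as lower at 48 h than at 12 h.

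Families of vesicle traffic differed in their counts. Of 48 genes whose symbols start with Rab and a digit 24 passed as higher and 5 as lower (median 0.32), of 30 Vps genes 13 and 1, of 27 sorting nexins 10 and 1, and of 22 genes whose symbols start with Tbc 10 and 3. Of 23 genes whose symbols start with Ap and a digit, among them the adaptor complexes of coated vesicles, 6 passed as higher and 10 as lower (median -0.05). In the list of SNARE proteins, which fuse membranes, 15 of 32 genes tested passed as higher and 2 as lower. Stx3, a syntaxin of the plasma membrane, was at 2363 and 2592 at 48 h, against 851 and 775 at 0 h (1.61 ± 0.11), Stx8 of late endosomes was at 1607 and 1758 at 48 h, against 627 and 611 at 0 h (1.44 ± 0.10), and Snap29 of autophagosome fusion rose by 1.29 ± 0.10. The tetraspanin Cd63, of endosome membranes, was at 30525 and 27664 at 48 h, against 11994 and 13097 at 0 h (1.21 ± 0.10). Rab27a, which docks secretory vesicles, was an exception among the Rab genes, at 411 and 411 at 48 h, against 761 and 929.8 at 0 h (-1.03 ± 0.12), and so was the noncoding gene Rab26os (-1.36 ± 0.12).

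Families of genes with a shared symbol were counted as well. Over all features 26.3% passed as higher and 26.4% as lower, and the passing counts of the Slc genes lie near these shares. Of 144 Slc transporter genes 41 passed as higher and 33 as lower, and 14 were called higher and 4 lower, with Slc40a1 and the lysosomal carrier Slc46a3 (2.54 ± 0.09) in front. Of 163 Zfp genes 37 passed as higher and 23 as lower, and 103 did not pass. Of 119 Tmem genes 47 passed as higher and 19 as lower, led by Tmem154 (2.34 ± 0.08). Of 20 kinesin genes 7 passed as higher and 10 as lower, and 8 were called lower and 1 higher. The exception was Kif3a, a kinesin of anterograde transport, at 3435 and 3287 at 48 h, against 838 and 783 at 0 h (2.05 ± 0.09), whereas the mitotic Kif2c was at 559 and 592 at 48 h, against 2458 and 2657 at 0 h (-2.15 ± 0.09).

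Lists of signals and their receptors had positive medians. Of cytokine and growth factor genes 14 of 25 genes tested passed as higher and 2 as lower (median 0.46), of their receptors 16 of 39 genes tested passed as higher and 7 as lower, and of G protein-coupled receptors 13 of 19 genes tested passed as higher and 3 as lower (median 0.46). Il15 (1.46 ± 0.14), Ebi3 (1.41 ± 0.10) and Vegfa (1.38 ± 0.11) rose among the ligands, while Pdgfb was lower, at 1192 and 1178 at 48 h, against 3984 and 3853 at 0 h (-1.73 ± 0.08). Among receptors Il7r rose by 1.71 ± 0.14, and P2ry6, which senses UDP, was lower, at 1816 and 1967 at 48 h, against 5373 and 4922 at 0 h (-1.44 ± 0.10). Of 7 tested chemokine genes Cxcl2 rose (2.48 ± 0.11) and Ccl9 fell to 10357 and 11519 at 48 h, against 22619.9 and 21513 at 0 h (-1.01 ± 0.10), and the other 5 did not pass.

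Markers of macrophage identity did not move as 1 group. Adgre1, the F4/80 antigen, was at 1912 and 2179 at 48 h, against 678 and 586 at 0 h (1.70 ± 0.11), the Fc receptor gene Fcgr1 at 1610.0 and 1527 at 48 h, against 480.4 and 497 at 0 h (1.68 ± 0.09) and the lysozyme gene Lyz2 at 37895 and 41579 at 48 h, against 19493 and 17440.5 at 0 h (1.11 ± 0.10). Csf1r, the receptor for the growth factor of macrophages, was lower, at 1103 and 1159 at 48 h, against 2274 and 1912 at 0 h (-0.88 ± 0.14), as was the lipopolysaccharide co-receptor Cd14, at 9345 and 10089.9 at 48 h, against 13333 and 13741 at 0 h (-0.48 ± 0.09). Spi1, the lineage factor PU.1, had signals of 537 and 589.5 at 48 h, against 697 and 609 at 0 h, and its difference missed the threshold (adjusted p = 0.118). Beside it, the factor genes Klf2 (1.33 ± 0.14) and Klf9 (1.07 ± 0.14) rose and Foxm1, which drives mitotic genes, fell (-1.79 ± 0.10). Dbp, a clock-controlled bZIP factor, was at 3236 and 3425 at 48 h, against 864 and 772 at 0 h (2.03 ± 0.11), and its 12 h arrays, at 732 and 856, lay near the 0 h values.

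Interferon-stimulated genes were mixed at 48 h, with 20 of 49 genes tested passing as higher and 12 as lower, and Ly6e was the largest rise of the list, at 12514 and 13037 at 48 h, against 3251 and 3069 at 0 h (2.02 ± 0.09). In the direct comparison 7 passed as higher and 19 as lower at 48 h than at 12 h. Glycolysis and hypoxia genes were mixed too, with 14 of 37 genes tested passing as higher and 6 as lower, and 4 passed as higher and 16 as lower at 48 h than at 12 h. Ndrg1 (2.27 ± 0.16), the hexokinase gene Hk3 (1.95 ± 0.08) and the enolase gene Eno2 (1.93 ± 0.10) were the called members with the largest rises over 0 h.

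The late time point was also set directly against the early one. At 48 h, 240 features were called higher than at 12 h (2.4%) and 325 lower (3.26%). Of the 8149 named genes 55 passed against 0 h in opposite directions at 12 h and at 48 h. Of these, 44 were higher at 12 h and lower at 48 h and 11 the reverse. The 0 h arrays are shared by both contrasts. A gene chosen for opposite signs has a larger difference between 48 h and 12 h by construction, so the direct values below describe these genes and add no support.

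Among the 10 largest of these, 4 were enzymes of sterol and fatty acid synthesis. Lss, which closes the sterol rings, had 0 h signals of 2237 and 1956, 12 h signals of 4365 and 4291, and 48 h signals of 858 and 814. Fdps, which makes farnesyl diphosphate, had 0 h signals of 17947 and 15439, 12 h signals of 27248 and 30864, and 48 h signals of 6206 and 6546. Cyp51, the lanosterol demethylase, had 0 h signals of 2623 and 2511, 12 h signals of 4476 and 4045, and 48 h signals of 955 and 960.1, and Fads2, a fatty acid desaturase, had 0 h signals of 968 and 1043, 12 h signals of 1334 and 1212, and 48 h signals of 286 and 277. A second probe of Lss had a log2 fold change of 0.06 over 0 h, which missed the threshold, and the mean of its probes gave -0.63 against -1.32 on the brighter one. In each of the 4 genes, on the brighter probe, the 12 h arrays were the highest and the 48 h arrays the lowest of the 6, with no overlap between time points. Against 12 h the log2 fold changes at 48 h were -2.37, -2.19, -2.15 and -2.18. Over the whole list of sterol and fatty acid synthesis the median was 0.44 at 12 h and -0.43 at 48 h, and 0 passed as higher and 24 as lower at 48 h than at 12 h.

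The other 6 had varied roles. St3gal6, a sialyltransferase of the Golgi, had 0 h signals of 1069 and 839, 12 h signals of 2631 and 2798, and 48 h signals of 399.8 and 461 (log2 fold change of 48 h over 12 h -2.66). Dcstamp, a fusion protein of multinucleated cells, had 0 h signals of 903 and 797, 12 h signals of 1147 and 1180.5, and 48 h signals of 362 and 399 (-1.62). The autophagy gene Atg9b (-1.58), the phosphatidylethanolamine enzyme Pcyt2 (-1.52) and B230217C12Rik (-1.95) ran the same way against 12 h. Smpdl3a, a phosphodiesterase related to acid sphingomyelinase, was the 1 gene of the 10 with the reverse order, with 0 h signals of 295 and 318, 12 h signals of 216 and 222, and 48 h signals of 1031 and 1281 (2.39).

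**Figure D3:**
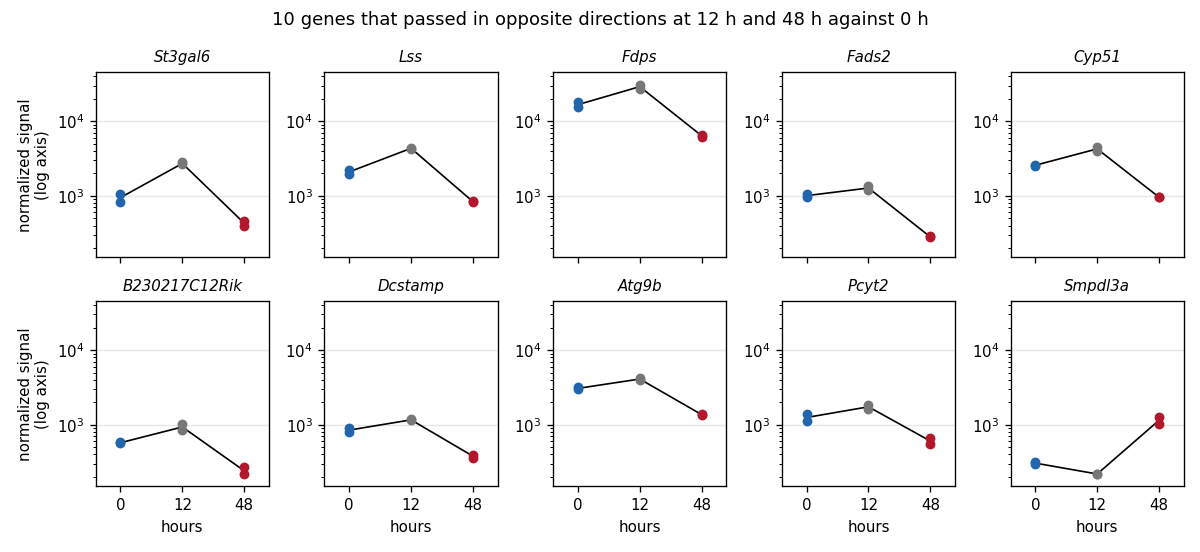
Normalized signal (log axis) at 0, 12 and 48 h of the 10 genes with the largest change among those that passed in opposite directions at 12 h and 48 h, with 2 points per time (blue 0 h, grey 12 h, red 48 h) and a line through the geometric means. In 9 genes the 12 h points are the highest and the 48 h points the lowest, and Smpdl3a has the reverse order.

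A second probe was available for 2948 genes. Where the brighter probe was called, in 336 genes, the second probe had the same sign in 328 and passed with it in 308, and in 201 both probes changed at least 2-fold. The change of the 2 brightest probes differed by at least 1 log2 unit with an adjusted p under 0.05 in 57 genes (1.93%), and in 29 genes both probes passed in opposite directions. For these genes the value depends on the probe. N4bp2l1 read 4169 and 3890.2 at 48 h, against 611 and 684 at 0 h, on 1 probe, and 148 and 168 at 48 h, against 202 and 200.5 at 0 h, on the other. Ctse, the protease cathepsin E, fell on its brighter probe (-2.20 ± 0.10) and had 929.6 and 933 at 48 h, against 667 and 599.9 at 0 h, on the second. Gpnmb, a membrane glycoprotein of macrophages, changed by 0.54 on the brighter probe and by 2.38 on the second, both as log2 fold changes. Lrrc8a (2.73 ± 0.10), Ypel3 (2.72 ± 0.14) and Serpinf1 (2.01 ± 0.14) rose on the brighter probe and had log2 fold changes of 0.12, 0.09 and 0.07 on a dim second probe that did not pass.

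Probes that failed detection on 1 side are not in the tested set, and give only bounds. Of 45281 probes, 608 were detected on both 48 h arrays and on neither 0 h array, and 493 of these had 1 gene symbol. Of the 608, 293 were detected on no 12 h array. The reverse held for 357 probes, of which 285 had 1 symbol. The bound is the mean of the bright group over that of the dim group, with a dim array raised, where it was lower, to the lowest signal of a detected probe on it. It reached 2-fold in only 53 of the 608 probes and 14 of the 357, so most of them lay near the detection limit. Signals in this paragraph were quantile normalized over all 45281 probes, and are not on the scale of the tested set. Lcn2, the iron-scavenging lipocalin 2, was at 3828 and 4513 at 48 h, against 101 and 96.9 at 0 h, where it was not detected, and so at least 32.3-fold higher. The tetraspanin gene Tspan10 was at least 15.7-fold higher, the osteocalcin-family gene Bglap2 at least 11.7-fold, Gas6, a ligand of TAM receptors, at least 5.42-fold and the carbonyl reductase gene Cbr2 at least 5.34-fold. A second probe of Cdsn gave at least 5.3-fold, beside the first described above. Dmpk, Nanos1, Id3 and Ccl2 were detected on both 0 h arrays and on neither 48 h array. All but Id3 were also detected on both 12 h arrays, and Id3 on neither. Dmpk, a kinase gene known from muscle, was at 120.1 and 121 at 48 h, against 2806 and 2345 at 0 h, at least 20.3-fold lower. Nanos1 was at least 3.91-fold lower, the HLH inhibitor Id3 at least 3.81-fold and the chemokine gene Ccl2 at least 3.6-fold, the last at 108 and 112 at 48 h, against 439 and 472 at 0 h.

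The deposited normalized table showed that the arrays had been normalized by the authors in 2 sets of 3, one with 48 h replicate 2 and 0 h replicate 1 and the other with 48 h replicate 1 and 0 h replicate 2, each with a 12 h array. What the sets stand for is not given in the sources used here. Within the first set 527 features differed upward and 508 downward by at least 2-fold between 48 h and 0 h. The second set gave 560 and 544. Of the 1040 called features 906 changed at least 2-fold in both sets. Within the sets, Avil had log2 fold changes of 5.32 and 5.41, Cox6a2 of 4.94 and 4.80, Dmwd of -3.06 and -3.13 and Mybl2 of -2.67 and -2.97. With the set as a block, 534 features were called higher and 507 lower. The counts of passing features grew more, to 3370 higher and 3358 lower, against 2627 and 2632 without the block.

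**Figure D4:**
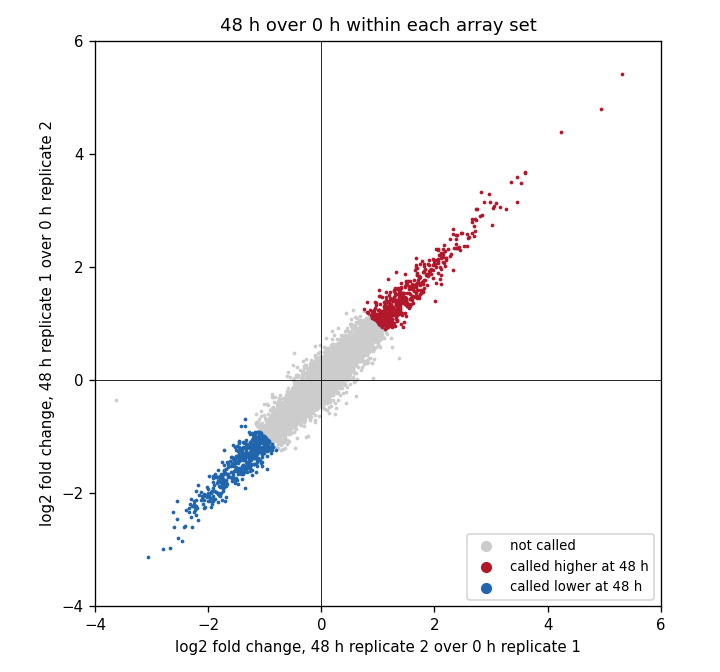
Log2 fold change, 48 h over 0 h, of each of the 9984 features within the 2 array sets (horizontal axis, 48 h replicate 2 over 0 h replicate 1; vertical axis, 48 h replicate 1 over 0 h replicate 2), with called features in red and blue. The called features lie along the diagonal in both directions, and 906 of 1040 are at least 2-fold apart in both sets.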

How the data were processed

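RAW 264.7 cells were profiled at 0, 12 and 48 h on Illumina beadchips (Mouse WG-6 v2.0), with 2 arrays per time point. The authors exported average bead signal intensity and a detection p-value per probe from GenomeStudio. The deposited intensity values carry no background subtraction and no normalization between arrays. The deposited value table holds the authors' log2 values after quantile normalization in 2 sets of 3 arrays, and was used as an alternative. R 3.0.2 is listed in the submitters' processing notes.

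Of 45281 probes, 14091 (31.1%) had a detection p under 0.05 on all 6 arrays. Signals of these probes were put on the log2 scale, and all 6 arrays were quantile normalized jointly. In the platform annotation 34885 probes had 1 gene symbol, 18 several and 10378 none. The probe of highest mean stood for a gene, which gave 9984 features. Tests used lmFit and eBayes of limma 3.58.1 in R 4.3.3 over the 6 arrays, with 3 residual degrees of freedom, and Benjamini-Hochberg adjustment over all features. Called features had an adjusted p under 0.05 and at least a 2-fold change. The script was tested on simulated data. The number of arrays limits the precision. Tables and plots were made in Python 3.11.15 with pandas 2.3.3 and matplotlib 3.10.9.

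Named genes were the 20 largest called rises and falls off the study's tabulated pathways, up to 4 called members of each list (up to 3 passing ones where none was called), up to 3 of each symbol family of at least 20 genes, the 6 most unequal probe pairs, the 10 genes of opposite change and the 6 highest bounds per direction. Marker genes were added for the check of the label. The members and gene lists were chosen with earlier results of these data known. Alternatives were other detection filters, averaging the probes of a gene, the normalized table as deposited, a fit of the 4 arrays of 48 h and 0 h alone, normexp correction of the background (offset 16), 75th percentile scaling, blocks for replicate number and for array set, and leaving out each array. The deposited table with the set as a block was added after the data had been seen.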

Additional observations from a re-analysis of the deposited data

Results flagged for a closer look

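The change against 0 h had opposite signs at 12 h and 48 h in 10 genes of the main text, a choice that makes the difference between both time points large by construction. As log2 fold changes of 48 h over 12 h these were -2.66 for St3gal6, -2.37 for Lss, -2.19 for Fdps, -2.18 for Fads2, -2.15 for Cyp51, -1.95 for B230217C12Rik, -1.62 for Dcstamp, -1.58 for Atg9b, -1.52 for Pcyt2 and 2.39 for Smpdl3a. These are the 10 largest of the 55 genes with such a pattern.

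Signal also appeared at 48 h on probes outside the tested set, which were detected on neither 0 h array. The bounds were at least 32.3-fold for Lcn2, 15.7-fold for Tspan10, 11.7-fold for Bglap2, 5.42-fold for Gas6, 5.34-fold for Cbr2 and 5.3-fold for the second probe of Cdsn. Tspan10, Gas6 and Cbr2 were detected on both 12 h arrays, and Lcn2, Bglap2 and the second Cdsn probe on neither.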

How the results depend on the processing

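With the deposited normalized table in place of the raw signals, 310 features were called higher and 305 lower against 0 h, 310 passed as higher and 305 as lower, and 80 were called higher and 115 lower against 12 h. When a block for the array set was added, an alternative chosen after seeing the data, that table gave 530 and 510 called, 3297 and 3372 passing, and 236 and 329 called against 12 h. Unequal probes numbered 12 of 1142 in pairs of brighter probes, above the median signal. Leaving out 1 array at a time gave 523 to 563 called higher, 501 to 548 called lower, 2091 to 2577 passing as higher, 2126 to 2583 passing as lower, and 240 to 267 and 323 to 342 called against 12 h. Deviations of same-numbered arrays correlated at -0.58 for 48 h and 0 h, at -0.57 for 12 h and 0 h and at 0.63 for 48 h and 12 h. These signs follow the array sets, since 48 h and 12 h arrays of the same number share a set. The 0 h array of that number is in the other set. The number of an array therefore did not pair the 0 h arrays with the later ones, whereas the set did group arrays across time points. With the replicate block 534 and 506 were called, 2450 and 2445 passed, and 240 and 325 were called against 12 h. The median of ER translocation and folding turned to 0.0226 with the mean of probes, 0.0155 without 0 h replicate 1 and 0.00124 without 48 h replicate 1 (range -0.0634 to 0.0155 leaving out 1 array at a time), and that of actin regulators to -0.0196 with no detection filter. That of the chemokines turned to -0.192 with detection on both arrays of 48 h or of 0 h, -0.0245 with no filter, -0.0526 without 0 h replicate 1 and -0.0158 without 48 h replicate 1 (range -0.0526 to 0.118). The causes were not tested.

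Of the 231 named genes none reversed under 16 alternatives, and 81 lost their adjusted p of 0.05 under at least 1, 80 of them under the deposited table. Rarg and Sesn2 did so under 4, up to 0.448 and 0.131, among them leaving out 0 h replicate 1 for both, 48 h replicate 2 for Rarg and 48 h replicate 1 for Sesn2. The mean of probes moved 11 named genes by over 1.5 times, and gave 1.84 for Casp4, -0.66 for Mrpl47, 0.86 for Bbc3, -0.63 for Lss and 1.42 for Lrrc8a, against 3.11, -1.06, 1.46, -1.32 and 2.73 on their brightest probes. Signal over background limits the dim features, of which 1.76% were called higher and 1.04% lower in the dimmest of 4 bins.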

Other observations

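Genes that follow each other in the RefSeq annotation were looked at as pairs. Of 3811 adjacent pairs with both genes tested, 23 were called higher in both members, 13 lower in both and 15 in opposite directions, counts that were not tested. Casp1, which matures interleukin 1 beta, and Casp4 are such a pair, at 1.02 and 3.11, and so are Dbp and Sphk2, at 2.03 and 1.28, and Septin8 and Kif3a, at 1.32 and 2.05, all as log2 fold changes. Both lower were Cbx5 and Hnrnpa1, at -1.46 and -1.26, and Hnrnpa2b1 and Cbx3, at -1.11 and -1.02, each a splicing factor beside a heterochromatin protein. Klhl6 and Klhl24 lay on opposite sides, at -1.08 and 2.45. Dmpk, which was detected at 0 h and 12 h but not at 48 h, lies between Dmwd, which fell by 3.10 on the log2 scale, and Six5. Some adjacent pairs are near-identical copies whose probes may read each other, such as H2ac18 and H2ac19, H2-Q6 and H2-Q7, and Tuba1a and Tuba1b, and their values are uncertain for that reason.

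One probe without a gene symbol differed more between the 2 arrays of 0 h than between time points. It read 139.1 and 179 at 48 h, against 2233 and 178 at 0 h, and did not pass. Its 12 h arrays read 186 and 3205, and both bright arrays, 0 h replicate 1 and 12 h replicate 2, were in the same array set. With the set as a block in the limma fit it passed (adjusted p = 0.0027). Within the sets its log2 fold changes were -3.64 and -0.36.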
